A study of Rattus norvegicus with 12 samples.

Results

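Long noncoding RNA was measured in the lumbosacral spinal cord of Wistar rat fetuses at embryonic day 19, and the transcripts described here are those with an Ensembl transcript identifier (beginning with ENSRNOT). They were 949 of the 22591 transcripts in the table; 20418 others carried NONCODE identifiers (NONRATT) and 1224 carried MSTRG identifiers of newly assembled transcripts. The ARM group was 3 libraries from fetuses with anorectal malformations induced by ethylenethiourea (ETU), a thyroid-suppressing teratogen, and the normal group was 3 libraries from normal fetuses of the same strain and age. The labels give no dose, and no group of exposed fetuses without malformations was analysed here, so exposure and malformation cannot be told apart. Nothing in the labels says whether the libraries came from separate animals or litters, and p-values then measure only the spread between these libraries, which may be technical. The lumbosacral cord supplies the pelvic organs and the anal sphincter.

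Ensembl annotates noncoding genes by joining RNA and complementary DNA alignments to the genome, and names a gene after the genomic clone or scaffold when no curated symbol exists. Long noncoding RNAs act in several ways: some hold proteins at chromatin, some matter through the act of being transcribed near another gene, and many have no known role. The same annotation also holds structural RNAs made by RNA polymerase III. Among these are RNase MRP RNA, the RNA of an enzyme that cleaves precursor ribosomal RNA; 7SK, which holds the elongation factor P-TEFb inactive; and 7SL, the scaffold of the signal recognition particle. In bulk tissue, fewer cells of a type and less RNA per cell cannot be told apart.

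Of the 949 transcripts, 913 bore a clone or scaffold name and 36 another name, and a current gene symbol was found for 38. They stood for 868 Ensembl names, 70 of which had more than 1 transcript. For 754 the table also gave a NONCODE identifier, and the recorded source was Ensembl for 725, Ensembl lincRNA (long intergenic noncoding RNA) for 191 and a literature set for 18. They lay on 21 chromosomes, with 127 on chromosome 1, 55 on X and 16 on 11. Another transcript of the table overlapped 289 of them, and 253 lay within 50 kb of a transcript bearing a gene symbol. The table gives no strand, so reads of overlapping transcripts on opposite strands may have been shared between them. The build of its coordinates is not given in the sources used here, and the coordinates below are those of the table unless a build is named.

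Promoter sequences are shown for 4 genes at whose loci Ensembl transcripts are described below: Ccdc107, 1 transcript of which overlaps the most abundant Ensembl transcript, RNase MRP; Meg3, an imprinted lncRNA gene; Irx3, a homeobox gene of neural tube patterning beside a transcript near the top of the comparison; and Top2b, a DNA topoisomerase gene whose Ensembl noncoding transcript was among those with the smallest p. Each is 300 bases, 5′ to 3′ on the strand of the gene, from 250 bases before to 50 after the annotated start in RefSeq, build GRCr8. These are the genes' own promoters, and where the Ensembl transcripts start in that build was not examined. Capitals mark matches on either strand to the TATA box (letters TATAAA), the cAMP response element (letters TGACGTCA), the CCAAT box and the GC box (letters GGGCGG).
Ccdc107 chr5:62545100-62545399 (+): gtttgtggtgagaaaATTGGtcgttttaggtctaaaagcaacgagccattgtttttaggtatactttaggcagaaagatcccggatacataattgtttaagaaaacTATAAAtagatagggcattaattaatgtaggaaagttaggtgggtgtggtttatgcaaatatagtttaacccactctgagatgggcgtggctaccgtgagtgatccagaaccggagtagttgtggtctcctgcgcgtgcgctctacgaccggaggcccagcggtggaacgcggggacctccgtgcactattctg
Meg3 chr6:134273806-134274105 (+): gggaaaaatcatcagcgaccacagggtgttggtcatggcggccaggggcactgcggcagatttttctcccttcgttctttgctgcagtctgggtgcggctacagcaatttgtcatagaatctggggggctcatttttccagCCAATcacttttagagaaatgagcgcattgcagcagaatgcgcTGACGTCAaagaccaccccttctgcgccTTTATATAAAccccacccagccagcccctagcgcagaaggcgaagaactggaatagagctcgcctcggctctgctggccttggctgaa
Irx3 chr19:31384868-31385167 (+): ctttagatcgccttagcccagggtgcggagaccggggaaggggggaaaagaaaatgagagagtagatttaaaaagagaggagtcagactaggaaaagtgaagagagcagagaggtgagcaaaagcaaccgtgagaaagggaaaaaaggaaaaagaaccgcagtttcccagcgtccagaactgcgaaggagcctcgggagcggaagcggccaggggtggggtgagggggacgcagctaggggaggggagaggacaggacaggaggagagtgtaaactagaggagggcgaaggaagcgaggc
Top2b chr15:11542415-11542714 (-): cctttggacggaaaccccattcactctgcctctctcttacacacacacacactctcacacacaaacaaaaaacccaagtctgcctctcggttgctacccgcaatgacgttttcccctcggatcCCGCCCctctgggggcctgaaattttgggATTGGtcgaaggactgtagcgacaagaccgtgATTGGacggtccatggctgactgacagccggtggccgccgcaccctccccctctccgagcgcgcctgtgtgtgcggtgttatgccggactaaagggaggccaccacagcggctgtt
Across 33469 rat promoters of the same length, 14.2% held the TATA box, 1.83% the cAMP response element, 37.5% the CCAAT box and 33.1% the GC box. The Meg3 window held the TATA box on both strands, in matches that overlap each other, and 1 match each to the cAMP response element and the CCAAT box. The Ccdc107 window held 1 TATA box and 1 CCAAT box, the Top2b window 2 CCAAT boxes and 1 GC box, and the Irx3 window none of the 4.

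The 949 were set apart by identifier and not by annotation, since 754 of them also carried a NONCODE identifier. The Ensembl transcripts so defined were low and patchy compared with those listed under NONRATT identifiers in the same libraries. Their median length was 781 bases, against 654 for NONRATT and 3676 for MSTRG, but their median genomic span was 4860 bases against 1373.5 for NONRATT. Only 36 of them (3.79%) had a span equal to their length, that is, no intron, against 47.9% of NONRATT transcripts. Their median total over the 6 libraries was 21 counts, against 93 for NONRATT and 1560.5 for MSTRG. A total under 10 counts was seen for 324 Ensembl transcripts (34.1%) and for 12.9% of NONRATT transcripts. The lowest total in the whole table was 3.

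In each library 75.9% to 78.8% of the Ensembl transcripts had at least 1 count, against 93.5% to 93.8% of the NONRATT transcripts. The level of those detected, in CPM (counts scaled to the library's total) per kilobase of transcript, had a median of 2.16 to 2.45 in the 6 libraries, against 7.19 to 8.14 for NONRATT. Both measures were lower for Ensembl transcripts in 6 of 6 libraries (two-sided exact sign-flip permutation test over libraries, p = 0.03125 for each, the smallest that 6 libraries allow). All libraries count the same transcripts, so this test covers the spread between libraries only and not that between transcripts. All 6 libraries held counts of 486 Ensembl transcripts (51.2%), against 84.4% of NONRATT and 86.4% of MSTRG transcripts. At the other end 41 Ensembl transcripts (4.32%) were counted in 1 library only, against 1.06% of NONRATT transcripts.

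**Figure D1:**
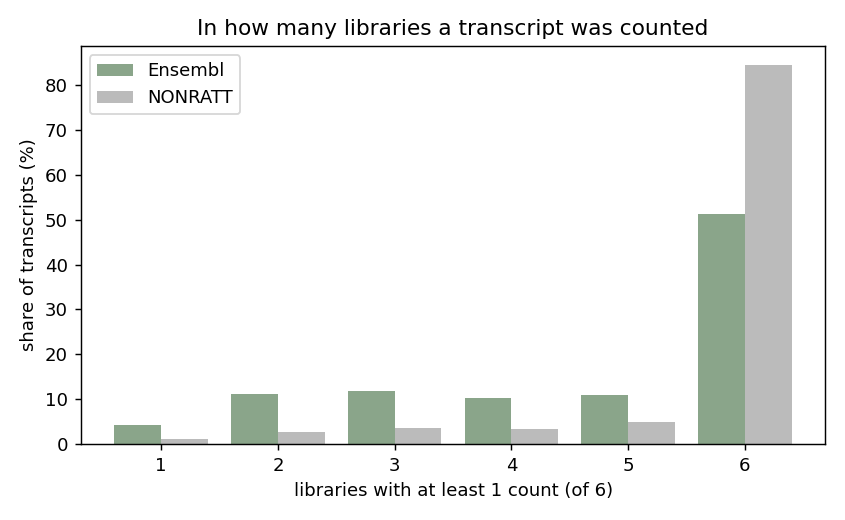
The share of transcripts (%, vertical axis) counted in 1 to 6 of the 6 libraries (horizontal axis), for Ensembl (green) and NONRATT (grey) transcripts. In all 6 libraries 51.2% of Ensembl and 84.4% of NONRATT transcripts were counted, and Ensembl transcripts were the larger share at each lower number.

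Low counts were also distributed differently under the 2 kinds of identifier. Of 42 Ensembl transcripts with 6 counts in total, 1 had exactly 1 in each library (2.38%, 95% Clopper-Pearson interval 0.0603% to 12.6%). Of 655 NONRATT transcripts with 6 counts, 407 had 1 in each library (62.1%, 58.3% to 65.9%), and 1.54% is the share if counts fall at random. The mean variance between libraries at a total of 6 counts was 1.71 for Ensembl and 0.664 for NONRATT transcripts, where random sampling gives 1. At a total of 12 counts it was 3.96 over 10 Ensembl transcripts and 2.15 over 272 NONRATT transcripts, where random sampling gives 2. At totals of 3 and 9, which 6 libraries cannot share evenly, both kinds lay above random sampling. The values were 0.880 (Ensembl) and 0.735 (NONRATT) against 0.5 at 3 counts, and 2.72 and 1.75 against 1.5 at 9. How the authors' counting treated such transcripts is not given in the sources used here.

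The level also varied with the kind of record and the position. The 191 lincRNA records had a median total of 36 counts. The 725 with source Ensembl, which also carry a NONCODE identifier, had 18. The 36 transcripts without an intron had a median of 94.5 counts. Their median level was 8.33 CPM per kilobase, against 1.31 for all 949 and 7.03 for all NONRATT transcripts. Ensembl and NONRATT transcripts were not compared within those without an intron, so the part of transcript structure in their difference was not tested. The 55 transcripts on X had a median of 47 counts, against 20 for the 894 on the autosomes, and the 289 that overlapped another transcript had 39, against 16 for the 660 that overlapped none.

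As a group the Ensembl transcripts took a small share of the counts in both phenotypes, and no difference between them was detected. They held 2.18%, 2.66% and 2.22% of the table's counts in the ARM libraries, against 2.27%, 2.11% and 2.60% in the normal libraries (2.36% ± 0.268 in ARM and 2.33% ± 0.253 in normal, SD, n = 3 each; two-sided exact permutation p = 0.8, where the smallest possible is 0.1). The groups overlapped, and the highest libraries were ARM replicate 2 and normal replicate 3. Detected Ensembl transcripts numbered 738, 740 and 748 in ARM, against 734, 720 and 742 in normal (742 ± 5.29 and 732 ± 11.1, SD, n = 3 each; exact permutation p = 0.3). The median level of detected transcripts was 2.29 ± 0.0853 CPM per kilobase in ARM and 2.32 ± 0.145 in normal (SD, n = 3 each; exact permutation p = 0.9).

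The libraries held 3285614 to 3721901 table counts in ARM and 3428655 to 3865088 in normal. At these depths a transcript without counts in a library could still have a level of 0.776 to 0.913 CPM (3 counts). Such floors cover counting error only, and the Clopper-Pearson intervals above treat transcripts as independent draws. Among marker loci of the cord, 7 of 12 neuronal genes had transcripts. Their summed level was 30730 to 32675 CPM in ARM and 23403 to 28092 in normal. Transcripts at Meg3 made up most of that sum in each library, and the other neuronal loci were not summed apart. Erythroid loci (2 of 6 genes) summed to 14.5 to 23.1 CPM in ARM and 26.0 to 89.8 in normal, cartilage loci (2 of 5) to 11.3 to 54.2 and 1.03 to 17.4, dorsal root ganglion loci (2 of 5) to 511 to 574 and 383 to 514, and muscle loci (2 of 6) to 0.806 to 4.57 and 0 to 0.263. The one marker transcript that passed the test was of the dorsal root ganglion list, NONRATT011163.2 at Pou4f1, with 163, 216 and 184 counts in ARM, against 11, 5 and 18 in normal (log2 fold change 4.06, SE 0.40, edgeR adjusted p 0.0281). Microglial loci (3 of 5) summed to 5.37 to 6.39 CPM in ARM and 2.33 to 4.96 in normal. Loci of motor neurons (1 of 5 genes), astrocytes and progenitors (2 of 7), the oligodendrocyte lineage (3 of 6) and endothelium (1 of 5) summed to at most 40.5 CPM in any library, with overlapping groups. The liver marker Alb, 1 of 4 genes, was at 0 to 0.284 CPM in ARM and 0 to 1.17 in normal. The dorsal root ganglion sums of the 2 groups overlapped, and that list had 3 transcripts at its 2 genes. None of these marker transcripts is an Ensembl one. Whether the tissue make-up differed between the groups, and its part in the results below, was not tested.

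A few structural RNAs held much of the Ensembl signal. RNase MRP RNA (ENSRNOT00000090903, chr5:58994682-58994953, 272 bases), 7SK (ENSRNOT00000079055, chr8:85480292-85480622, 331 bases) and 7SL (ENSRNOT00000088597, listed as LOC102723236, RefSeq symbol Rn7sl1, chr6:91680229-91680528, 300 bases) together took 44.0%, 52.5% and 44.3% of all Ensembl counts in ARM, against 44.6%, 42.1% and 49.5% in normal. These transcripts are short and are processed without a poly(A) tail. The labels name no depletion or selection step of the libraries.

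RNase MRP RNA had 19096, 32090 and 21670 counts in ARM, against 21750, 21460 and 30072 in normal. Its mean level of 24858 CPM per kilobase was the highest of all Ensembl transcripts, and the groups overlapped (log2 fold change, ARM over normal, 0.02, SE 0.22). The Ensembl transcript held 99.3% to 99.8% of the counts at its locus, which also holds 2 Ccdc107 transcripts, 1 of them overlapping it directly. For 7SK the counts were 8573, 12032 and 10709 in ARM, against 9594, 9200 and 13682 in normal (log2 fold change -0.03, SE 0.18). For 7SL they were 3839, 5059 and 4253 in ARM, against 3405, 3636 and 5271 in normal (log2 fold change 0.13, SE 0.18). Each of the 3 RNAs was highest in ARM replicate 2 among the ARM libraries and in normal replicate 3 among the normal ones, and the groups overlapped for each. The remaining 946 Ensembl transcripts together held 1.24% ± 0.0223 of the table's counts in ARM and 1.26% ± 0.0472 in normal (SD, n = 3 each; exact permutation p = 0.7).

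**Figure D2:**
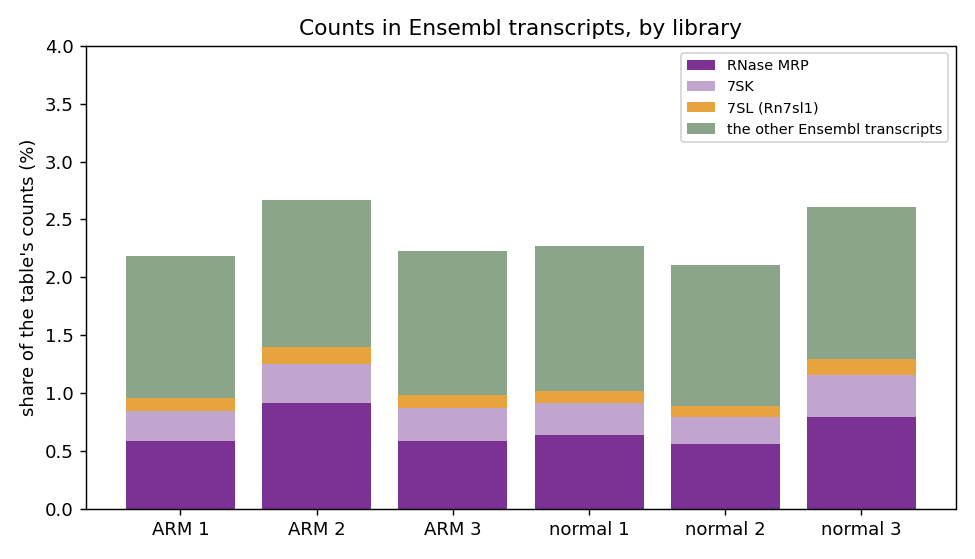
Share of the table's counts (%, vertical axis) in each library, ARM replicates left and normal replicates right, split into RNase MRP, 7SK, 7SL and the other Ensembl transcripts. The total runs from 2.11% to 2.66%; the structural RNAs make the taller bars of ARM replicate 2 and normal replicate 3.

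Below these RNAs the levels dropped sharply. The next highest was a transcript at Snx3, the gene of an endosomal sorting protein (ENSRNOT00000075924, 932 bases), with a mean of 345 CPM per kilobase. Its counts were 1093, 1038 and 893 in ARM, against 1298, 962 and 1659 in normal, and the groups overlapped (log2 fold change -0.34, SE 0.23). The second Snx3 transcript (ENSRNOT00000074532) had 646, 1138 and 1026 counts in ARM, against 771, 965 and 966 in normal (0.08, SE 0.19). The 2 transcripts overlap, and the first took 46.5% to 62.9% of their sum in ARM and 49.9% to 63.2% in normal. Summed, the locus was at -0.17 (SE 0.14). Snx3 messenger RNA was not measured, and whether its reads were counted on these transcripts was not tested.

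Most of the other abundant members were unnamed. AABR07017145.1 (ENSRNOT00000086616) had 1606, 1838 and 1727 counts in ARM, against 1614, 1874 and 1874 in normal, with a mean level of 238 CPM per kilobase (log2 fold change -0.02, SE 0.10). Rn60_13_0829.4 (ENSRNOT00000076902) had 702, 749 and 704 counts in ARM, against 751, 841 and 941 in normal (-0.20, SE 0.12). AABR07057798.1 (ENSRNOT00000087238) had 333, 340 and 377 counts in ARM, against 438, 482 and 384 in normal (-0.29, SE 0.14). After scaling to library size, the ARM libraries lay below every normal one for Rn60_13_0829.4 and overlapped them for the other two. By counts alone, AABR07034750.1 (ENSRNOT00000090971, 5400 bases, 14799 bases from an Aifm3 transcript) came next after the structural RNAs, with 2705, 3219 and 3133 counts in ARM, against 2712, 2898 and 3585 in normal (0.01, SE 0.12).

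Tug1 and Meg3 are the best known lncRNA genes among the members. Tug1, a widely expressed lncRNA first described in the retina, was represented mainly by its 2 Ensembl transcripts. ENSRNOT00000089742 had 1133, 1323 and 1294 counts in ARM, against 1091, 1471 and 1770 in normal (log2 fold change -0.17, SE 0.16). ENSRNOT00000076420 had 940, 1151 and 1028 counts in ARM, against 1002, 1105 and 1402 in normal (-0.14, SE 0.14). The groups overlapped for both. The first of them alone held 43.8% to 46.8% of the counts at the locus in ARM and 41.7% to 49.5% in normal, and the locus sum was at -0.15 (SE 0.14).

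Meg3 is a maternally expressed lncRNA of the imprinted Dlk1-Dio3 region, and its Ensembl transcripts carried little of its signal. ENSRNOT00000088572 (AABR07065531.5, 579 bases) had 483, 436 and 433 counts in ARM, against 345, 362 and 408 in normal, and every ARM library lay above every normal one (log2 fold change 0.31, SE 0.14, edgeR adjusted p 0.837). The second, ENSRNOT00000090095, had 11, 24 and 77 counts in ARM, against 10, 26 and 33 in normal (0.70, SE 0.69), or -0.32 without ARM replicate 3. The first took 0.264% to 0.330% of the counts at the Meg3 locus in ARM and 0.251% to 0.337% in normal, where 19 transcripts are joined through overlaps. A NONRATT transcript of the locus, NONRATT024628.2, had 51373, 50498 and 58995 counts in ARM, against 47674, 52125 and 41779 in normal (0.21, SE 0.11), and the locus sum was at 0.18 (SE 0.14). The neuronal marker sum given above is mostly of Meg3 transcripts.

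**Figure D3:**
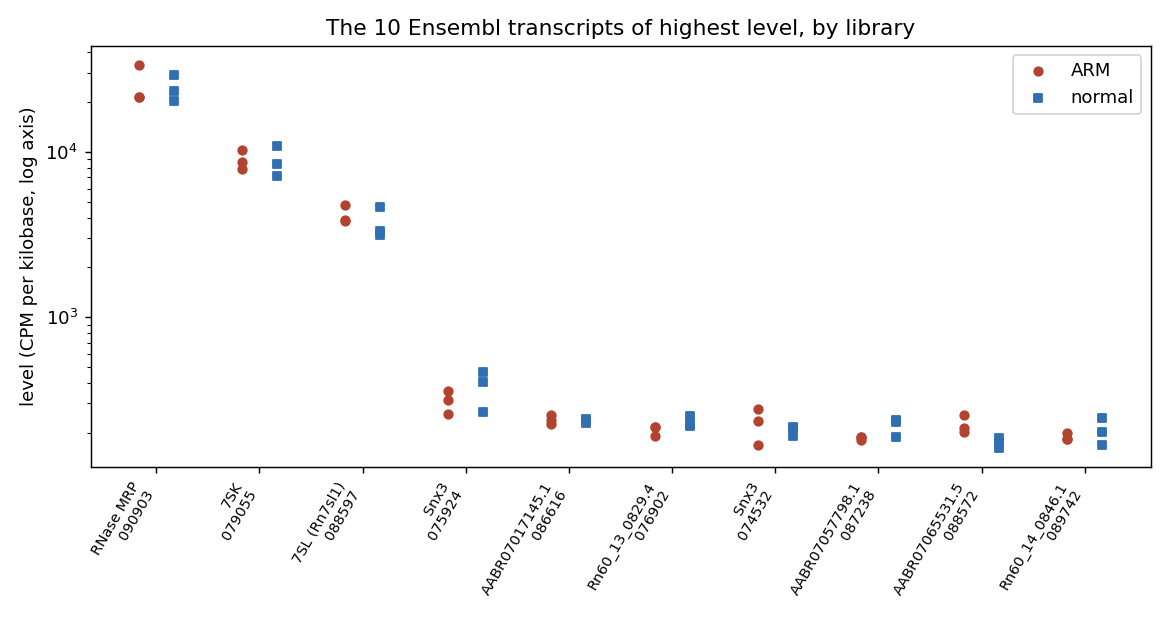
Level in CPM per kilobase (vertical log axis) of the 10 Ensembl transcripts of highest mean level, with the last 6 digits of their identifiers, in each ARM library (red, left) and normal library (blue, right). RNase MRP, 7SK and 7SL lie far above the next, Snx3, at a mean of 345 CPM per kilobase, and the groups overlap for each of these 4.

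The comparison of ARM with normal cord asked which transcripts differ between the phenotypes. No Ensembl transcript passed: the edgeR quasi-likelihood test called 0 of the 312 that passed its expression filter (Benjamini-Hochberg adjusted p under 0.05; smallest adjusted p 0.832). Over all 13343 tested transcripts it called 16, or 0.120%. At an unadjusted p under 0.05 there were 18 Ensembl transcripts (5.77%), against 5.98% of all tested, 10 higher (3.21%, against 3.44%) and 8 lower in ARM (2.56%, against 2.54%). limma-voom called 0 of the 312 as well (16 of all tested, 0.120%). Without the expression filter edgeR called 0 of the 949, against 9 of 22591 (0.0398%) in the whole table, with 48 of the 949 (5.06%) at an unadjusted p under 0.05, against 5.29% of the whole table. DESeq2 called 1 of the 447 to which it gave an adjusted p, against 77 of 16742 (0.460%) in the whole table. On simulated counts for this comparison edgeR recovered 2 of 70 transcripts changed 2-fold, 31 of 57 changed 4-fold and 50 of 61 changed 8-fold. There were 12918 fitted, and 8 of its 91 calls were of unchanged transcripts. The changed transcripts were drawn from all that passed the filter, whatever their identifier, so recovery among Ensembl transcripts was not measured.

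The filter removed 637 of the 949 and kept 32.9%, against 58.3% of NONRATT and 92.3% of MSTRG transcripts. Among lincRNA records 82 of 191 were tested, and among transcripts without an intron 24 of 36. The estimates of the 312 centred near 0, with 144 higher and 168 lower in ARM (46.2% and 53.8%, against 51.5% and 48.5% of all tested). Their median log2 fold change was -0.02, against 0.01 for all tested, and 5% lay below -0.68 and 5% above 0.70. The median SE was 0.28. Libraries of the 2 groups did not overlap for 38 of the 312 (12.2%, against 12.5% of all tested), with ARM above in 23 (7.37%, against 9.18%) and below in 15 (4.81%, against 3.28%). These shares are near those of the table as a whole.

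The abundant members give the closest limits. Of the 35 with a mean of at least 100 CPM, all tested, 14 had higher and 21 lower estimates in ARM, between -0.36 and 0.31 on the log2 scale, with a median SE of 0.14. Over the 161 with a mean of at least 10 CPM, 130 had a highest library under 2 times the lowest, and the median of that ratio over the 161 was 1.60. Estimates beyond 1 in size were seen for 15 of the 312 tested members (4.81%, against 3.72% of all tested transcripts), and 6 of these (1.92% of the members, against 1.57%) had an unadjusted p under 0.05.

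**Figure D4:**
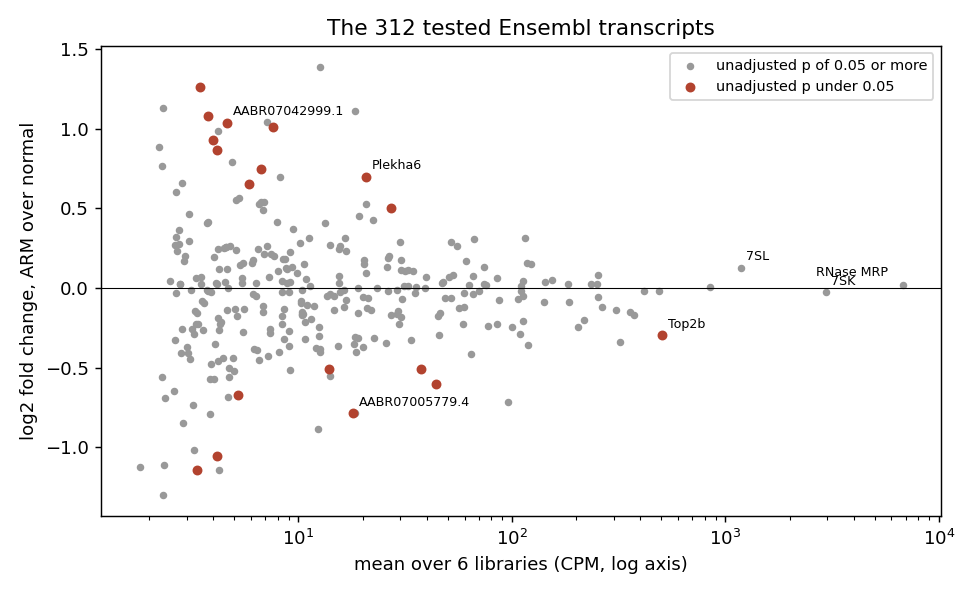
Log2 fold change, ARM over normal (vertical axis), against the mean level in CPM over the 6 libraries (horizontal log axis) for the 312 tested Ensembl transcripts. The 18 with an unadjusted p under 0.05 are red, none passed after adjustment, and the scatter narrows toward the abundant transcripts.

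The transcripts with the smallest p are named without having passed. At the higher end, the Plekha6 transcript (ENSRNOT00000076153, chr13:50559134-50560204, 419 bases) had 94, 81 and 98 counts in ARM, against 49, 67 and 56 in normal. Every ARM library lay above every normal one (log2 fold change 0.70, SE 0.18, edgeR adjusted p 0.832). Plekha6 encodes a protein with a pleckstrin homology domain, and the Ensembl transcript held 8.24% to 10.9% of the counts at its locus in ARM and 6.57% to 8.63% in normal. Summed over the 4 transcripts there the estimate was 0.36 (SE 0.13, edgeR adjusted p 0.791).

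AABR07042999.1 (ENSRNOT00000084464, chromosome 19, 1880 bases) lay 3815 bases from a transcript at Irx3. It had 17, 22 and 28 counts in ARM, against 8, 11 and 14 in normal, and the groups did not overlap (log2 fold change 1.04, SE 0.30, edgeR adjusted p 0.832). The noncoding transcript at Irx3 itself, NONRATT014487.2, had 27, 29 and 31 counts in ARM, against 38, 22 and 30 in normal (-0.03, SE 0.28). Whether the neighbours differ in their response was not tested. The table holds noncoding transcripts, so the Irx3 messenger RNA was not measured.

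A further 3 had higher estimates. AABR07051326.1 (ENSRNOT00000088366) had 96, 121 and 124 counts in ARM, against 86, 79 and 79 in normal (0.50, SE 0.16). AABR07005535.1 (ENSRNOT00000088158, 21834 bases from a transcript at the ribosomal protein gene Rps13) had 13, 26 and 13 counts in ARM, against 5, 8 and 9 in normal (1.26, SE 0.41). AC096263.1 (ENSRNOT00000085732) had 24, 28 and 58 counts in ARM, against 14, 18 and 23 in normal (1.01, SE 0.37), but the sum over the 4 transcripts at its locus was at 0.18 (SE 0.19). All of these had an edgeR adjusted p of 0.832, and for all of them the ARM libraries lay above the normal ones. A pair of transcripts at Smim20, which encodes a small membrane protein of mitochondria, was looked at after its values were seen. ENSRNOT00000076276 had 32, 20 and 37 counts in ARM, against 16, 17 and 21 in normal (0.75, SE 0.30, edgeR adjusted p 0.832). ENSRNOT00000091794 had 31, 51 and 20 counts in ARM, against 9, 20 and 22 in normal (1.04), and the groups overlapped. Neither passed the threshold. The first is overlapped by 3 transcripts without an Ensembl identifier, and their sum is not given here.

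At the lower end, AABR07005779.4 (ENSRNOT00000085384, 2526 bases, 24456 bases from a transcript at the kinase gene Mapk3) had the smallest p of all Ensembl transcripts. It had 40, 51 and 52 counts in ARM, against 77, 79 and 95 in normal, with every ARM library below every normal one (log2 fold change -0.79, SE 0.17, edgeR adjusted p 0.832). A noncoding transcript of Top2b (ENSRNOT00000075125, chr15:10262972-10319741, 4740 bases) was the most abundant of this set. Top2b encodes topoisomerase II beta, which relieves DNA supercoiling and is the form that neurons keep after their last division. It had 1506, 1579 and 1799 counts in ARM, against 1975, 2064 and 2063 in normal, or 464 ± 17.8 CPM in ARM and 551 ± 22.1 CPM in normal (SD, n = 3 each). The groups did not overlap (log2 fold change -0.30, SE 0.09, edgeR adjusted p 0.832), and no other transcript of this noncoding table overlapped it. Top2b messenger RNA was not measured, and whether its reads were counted on this transcript was not tested.

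A further 3 had lower estimates. AABR07053710.1 (ENSRNOT00000078027) had 8, 9 and 5 counts in ARM, against 20, 12 and 18 in normal (-1.14, SE 0.38). AABR07061237.1 (ENSRNOT00000088100) had 129, 118 and 126 counts in ARM, against 205, 229 and 143 in normal (-0.60, SE 0.21). AABR07008030.1 (ENSRNOT00000077151), which overlaps a transcript at the fatty acid elongase gene Elovl7, had 9, 8 and 12 counts in ARM, against 29, 19 and 13 in normal (-1.05, SE 0.40). After scaling, the groups overlapped for AABR07061237.1 and not for the other two, and the edgeR adjusted p was 0.832 for each.

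Of 9 lists of genes known in this tissue or in noncoding RNA biology, 3 had any Ensembl member, by own symbol, overlap or a distance of up to 50 kb. The nuclear and abundant list had 7 members, of which 6 were tested, 3 with higher and 3 with lower estimates (median -0.00, against 0.01 for all tested), and 0 were called. The imprinted list had 4 members, 3 of them at or near Meg3 and shared with the list before. Among these, ENSRNOT00000077237 lay 16330 bases from a Meg3 transcript and was not tested. The list's 3 tested members had higher estimates (median 0.31), as had 51.5% of all tested transcripts. They include both transcripts overlapping Meg3, which lie at 1 locus. The member away from Meg3 was AABR07054855.1 (ENSRNOT00000086974), 1047 bases from a transcript at the imprinted Gnas gene. It had 51, 50 and 66 counts in ARM, against 57, 71 and 38 in normal (0.03, SE 0.27). The spinal patterning list had 3 members, of which the one near Irx3 was tested. The one near Gata2, a gene of ventral interneurons, had 3, 4 and 2 counts in ARM and 3, 8 and 6 in normal, and the one near Hoxc10, a homeobox gene of the lumbar cord, had 3, 2 and 2 in ARM and 6, 5 and 3 in normal. The lists of small nucleolar RNA hosts, microRNA hosts, neural lncRNAs, anorectal development, thyroid hormone, and axon guidance and synapse had 0 members.

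Among Ensembl names with several transcripts, 27 had more than 1 tested. In 13 of them the estimates all lay on one side of 0, and in the rest transcripts of 1 name had estimates of both signs. At LOC102549726, for example, the 3 tested transcripts ran from -0.37 to 0.45, and at Rn60_6_1241.2 from -0.51 to 1.11.

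Some Ensembl transcripts were nearly absent from some libraries and well counted in others, without following the phenotype. At most 1 count in one library and at least 20 in another was found for 7 transcripts, 2.58% of the 271 that reached 20 counts in any library, against 3.60% for NONRATT and 15.2% for MSTRG. The clearest case was AABR07019086.1, whose 2 transcripts share the same start and end on chromosome 15. ENSRNOT00000088122 had 365, 0 and 0 counts in ARM, against 0, 0 and 0 in normal. ENSRNOT00000088613 had 2, 385 and 414 counts in ARM, against 418, 459 and 421 in normal. Their sum was even, at 367, 385 and 414 in ARM, against 418, 459 and 421 in normal (log2 fold change -0.15, SE 0.11). Nearly all counts thus lay on one transcript in ARM replicate 1 and on the other in the remaining 5 libraries.

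Counts also moved between an Ensembl and an overlapping NONRATT transcript on chromosome 20. There, ENSRNOT00000090050 had 20, 85 and 95 counts in ARM, against 0, 78 and 0 in normal, while NONRATT017519.2 had 138, 77 and 82 in ARM, against 150, 87 and 222 in normal. The sum of the 2 was 158, 162 and 177 in ARM and 150, 165 and 222 in normal. The other cases differed from these. ENSRNOT00000076715 had 1, 113 and 122 counts in ARM, against 1, 108 and 107 in normal, at a locus with 1117, 1341 and 1243 counts in ARM and 1074, 1219 and 1591 in normal. ENSRNOT00000085713 was at 0 in normal replicate 2 alone, where the other Ensembl transcript of its locus had 70 counts, as in normal replicate 1. ENSRNOT00000078019 was at 0 in ARM replicate 2 alone, and its locus sum was 101, 85 and 113 counts in ARM, against 93, 33 and 20 in normal.

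The other 2 are the members that some fits called. ENSRNOT00000076887 (Rn60_6_1241.2, chromosome 6) had 98, 100 and 69 counts in ARM, against 0, 0 and 130 in normal, so the groups overlapped (log2 fold change 1.11, SE 1.44, edgeR adjusted p 0.929). Without normal replicate 3 it was called higher (9.49, edgeR adjusted p 0.0465), a value that depends on the prior count since both remaining normal libraries are at 0. The 3 overlapping Ensembl transcripts of that name summed to 147, 159 and 121 counts in ARM and 57, 79 and 214 in normal (0.32, SE 0.44).

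ENSRNOT00000076920 (Rn60_X_0752.3, chrX:74333329-74334974, 602 bases) had 2, 2 and 2 counts in ARM, against 1, 879 and 564 in normal. It was the transcript DESeq2 called (log2 fold change -7.89, SE 1.79, DESeq2 adjusted p 0.00418); it did not pass the edgeR filter, and without a filter its edgeR adjusted p was 0.844. Without normal replicate 1 edgeR called it lower (-8.36, SE 0.32, edgeR adjusted p 0.00127). The overlapping NONRATT031073.2 had 11153, 6396 and 14650 counts in ARM, against 18, 22326 and 7415 in normal, and the adjacent NONRATT031072.2 had 26577, 14386 and 34585 in ARM, against 50, 56874 and 18732 in normal. Normal replicate 1 thus stood apart at these 2 transcripts, but not at NONRATT030613.2 of the same locus. That transcript had 60, 73 and 79 counts in ARM, against 68, 104 and 118 in normal. Fetal sex is not among the sample details used here, and its part in these X counts was not tested. The sum over the 4 transcripts joined at the locus gave 0.07 (SE 1.26). The Ensembl transcript held 0.0136% to 0.0309% of the locus counts in ARM and 1.14%, 3.77% and 6.96% in normal. In normal replicate 1 that share is 1 count of 88 at the locus.

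**Figure D5:**
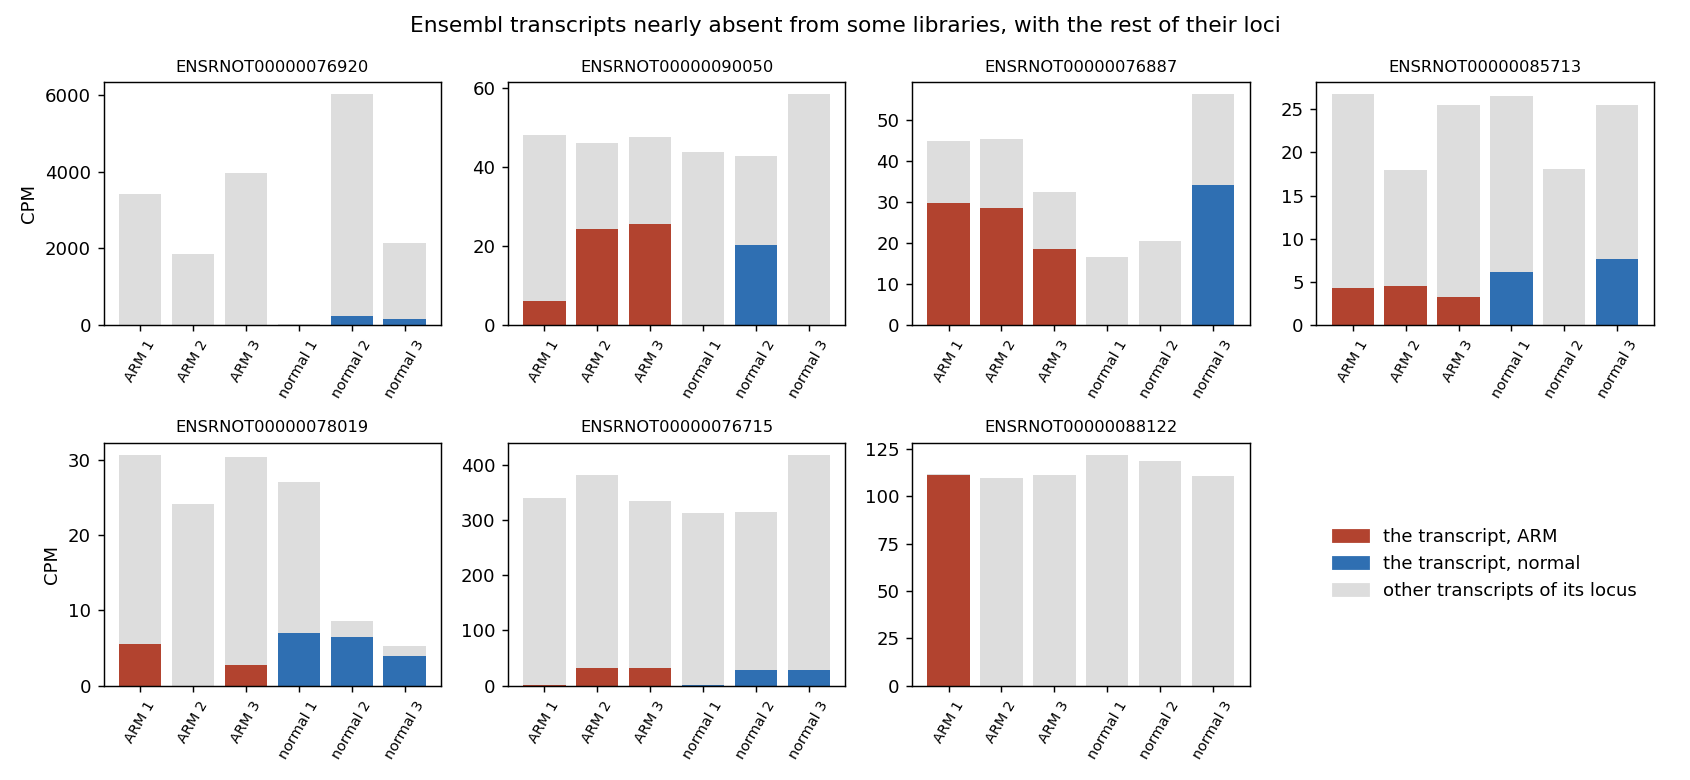
CPM (vertical axes, each with its own scale) of the 7 Ensembl transcripts with at most 1 count in one library and at least 20 in another, in ARM (red, left) and normal (blue, right) libraries, with the other transcripts of the locus stacked in grey. For ENSRNOT00000088122 the total stays level while the counts move between 2 transcripts; for ENSRNOT00000076920 the locus total in normal replicate 1 is 25.7 CPM, against 1841 to 6031 in the other libraries.

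At least 10 counts in one group with 0 in every library of the other were found for 5 of the 949 members (0.527%), against 0.571% of the whole table. A pair of members, looked at after their values were seen, had them in all 3 libraries of their group (0.211% of the members, against 0.106% of the whole table). AABR07054341.1 (ENSRNOT00000087730) had 2, 5 and 5 counts in ARM and 0 in each normal library, at least 4.16-fold higher against a floor of 3 counts over the normal group. ENSRNOT00000087780, with the symbol Sert1, had 0 in each ARM library and 3, 6 and 5 counts in normal, at least 4.38-fold lower against 3 counts over the ARM group. Both were too low for the edgeR filter. The one transcript that the naming rule takes for absence from a group, ENSRNOT00000088122, had counts in ARM replicate 1 alone.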

How the data were processed

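Raw counts of 6 lncRNA libraries were deposited by transcript, per the file headers, with length and coordinates. Its 6 columns of FPKM and the 6 miRNA libraries were not used. The tools in the submitters' processing notes are CASAVA 1.8, TopHat2 2.0.9, Cufflinks 2.1.1 and Cuffdiff, without roles; a mouse build is listed there although the table is of rat. No source used here states the counting tool, the strand setting or the rat build. Headings of the normal columns show the group but not which sample, so their replicate numbers are names.

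All 22591 transcripts entered 1 edgeR 4.0.16 fit in R 4.3.3 (TMM, default filter, quasi-likelihood, phenotype alone), with Benjamini-Hochberg adjustment over the 13343 tested and a threshold of 0.05. SE is the absolute log2 fold change over the square root of F. CPM uses the table's total, and level is CPM per kilobase. Exact permutation tests, two-sided, served for library measures. Loci are transcripts joined through overlapping coordinates, directly or through others, whatever the strand; symbols came from the table's names matched to RefSeq. No 2 libraries held identical values. The fit was tested on simulated counts.

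Named were members called (0), the 5 higher and 5 lower of smallest p, the 10 of highest level, the 5 with most counts, those absent from 1 group but averaging 10 counts or more in the other, those called by DESeq2 1.42.0 or limma-voom (limma 3.58.1), and up to 3 per list. The members, lists and tests were chosen with earlier results of these data known. Alternatives were other scalings, tools, filters and thresholds, counts summed over loci and each library left out. The share without the structural RNAs was added after seeing the data.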

Additional observations from a re-analysis of the deposited data

How the results depend on the processing

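No paired analysis was possible because the headings of the normal columns show the group but not which sample. The count of Ensembl transcripts past the threshold was 0 in the edgeR fit, with either other scaling, limma-voom, no filter, a minimum mean of 1 CPM, summed loci and a threshold of 0.1; it was 1 with DESeq2 and 0 to 1 over the 6 fits that left out 1 library. The single calls were ENSRNOT00000076920, lower with DESeq2 and without normal replicate 1, and ENSRNOT00000076887, higher without normal replicate 3. Over the whole table the 6 fits that left out 1 library called 19 to 29 of 13924 to 14003 tested transcripts. At an unadjusted p under 0.05 edgeR's count was 18 of 312 Ensembl transcripts. With 1 library left out it was 12 to 27 of 330 to 337. The whole-table share at that p was not taken for those fits.

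The differences in library measures, ARM minus normal, changed sign between settings. For the share of counts the difference was 0.0277 percentage points, -0.0222 without RNase MRP, 7SK and 7SL, and -0.126 to 0.166 with 1 library left out. For detected transcripts it was 10, but -6 at 3 counts, -7 at 10 counts and -8.33 at 1 CPM, and 4 to 15 with 1 library left out. For the median level it was -0.0289 CPM per kilobase, 0.148 at 3 counts, 0.701 at 10 counts and -0.108 to 0.0337 with 1 library left out.

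Of 23 named log2 fold changes, 16 kept their sign in all settings. Of the 299 alternative values, 274 kept their direction and side of the threshold and 25 changed sign, none of them past the threshold. RNase MRP was at -0.000234 with DESeq2's size factors, -0.0143 with DESeq2 and -4.94e-05 without a filter. AABR07034750.1 was at -0.0139, -0.0281 and -0.0156 in the same settings, -0.000278 with the filter at 1 CPM and -0.0117 summed over its locus. With total-count scaling 7SK was at 0.0186 and AABR07017145.1 at 0.0236. Snx3 (ENSRNOT00000074532) was at -0.172 summed over its locus. With 1 library left out, the ranges were -0.230 to 0.171 for RNase MRP, -0.152 to 0.151 for 7SK, -0.0565 to 0.111 for AABR07034750.1, -0.0685 to 0.0198 for AABR07017145.1, -0.0903 to 0.250 for that Snx3 transcript, -0.194 to 0.208 for AABR07054855.1 and -0.315 to 1.11 for the Meg3 transcript ENSRNOT00000090095. Other scalings moved the median of all transcripts by -0.02 to 0.04 on the log2 scale. The cause of these changes was not tested. Of the 949 members, 324 had under 10 counts over the 6 libraries, and 312 passed the expression filter.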

Other observations

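Ensembl transcripts counted in 1 library only were spread over all 6 libraries: 4, 3 and 9 in the ARM libraries and 7, 7 and 11 in the normal libraries. Apart from ENSRNOT00000088122, with 365 counts in ARM replicate 1, the highest count of such a transcript was 19, in normal replicate 3 (AABR07004228.1, ENSRNOT00000092225). Of the 41, 9 had at least 5 counts.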
